A study of Rattus norvegicus with 58 samples.

Results

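Ptgs2, Nos2 and Arg1 encode 3 enzymes, of prostaglandin, nitric oxide and arginine metabolism, and they were taken by identifier from the deposited table. Ptgs2 (ENSRNOG00000002525) and Arg1 (ENSRNOG00000013304) were found, so 2 genes of the 16879 with an identifier were followed over 58 libraries. Nos2 (ENSRNOG00000011023), the inducible nitric oxide synthase, was not analysed here. The symbols are those given with the 3 identifiers, since the reference table used here paired no identifier with a symbol.

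Ptgs2, also called COX-2, is the inducible cyclooxygenase. It turns arachidonic acid into prostaglandin H2, from which prostaglandin E2 and other mediators of pain, swelling and vessel dilation are made, and it is the target of COX-2 inhibitors. Arg1, arginase 1, splits arginine into ornithine and urea. It draws on the arginine that Nos2 would otherwise use to make nitric oxide, and it is widely used as a marker of alternatively activated macrophages in rodents, although neutrophils and liver cells also carry it.

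Synovial tissue, the lining and soft tissue of the joint, came from rats in 10 groups. Arthritis had been induced in female DA/OlaHsd rats of 6 to 8 weeks with 250 µl of pristane, a hydrocarbon oil that causes an autoimmune-like arthritis (PIA), and time was counted from the day after both rear limbs had reached a set severity. Arthritic rats left untreated gave 4 libraries. The other arthritic rats were treated for 1, 3 or 5 days with subcutaneous saline or with RTD-1 at 5 mg per kg, with 4 libraries per arm at 1 day and 8 per arm at 3 and at 5 days. RTD-1 denotes a theta-defensin of the rhesus macaque, which is a cyclic antimicrobial peptide. The non-arthritic groups were 4 naive libraries and 5 libraries each from healthy animals after 3 and 5 days of RTD-1. The healthy animals were given RTD-1 at 5 mg per kg as well. The strain and age of the non-arthritic rats are not stated in the labels, and a healthy group given saline was not analysed here. Whether each library is a different animal is not stated, so a p-value here reflects only how these libraries vary, and part of that may be technical.

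Values are given as normalized reads, meaning a gene's reads scaled to a common depth, that of the median library. Libraries held between 464693 and 7716834 reads in genes. The 10 healthy RTD-1 libraries and 3 saline libraries (day 1 replicate 2, day 3 replicate 4 and day 5 replicate 1) were sequenced more deeply than the rest. Without those 3 saline libraries no call of either gene changed, and RTD-1 minus saline on day 5 was -0.77 log2 for Ptgs2 and -0.95 for Arg1, beside -0.73 and -1.08 with them. The tissue could not be checked against marker genes because the table carries no symbols. These are bulk samples, so fewer cells of a type and less RNA per cell cannot be told apart.

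Of the 3 genes, Ptgs2 matched an entry in the RefSeq promoter table (assembly GRCr8). The 250 bases before its start, at chr13:64713813-64714062 on the plus strand, are shown because Ptgs2 is a gene known to be switched on at its promoter in inflamed tissue. Capitals mark the matches to the motifs searched.
Ptgs2: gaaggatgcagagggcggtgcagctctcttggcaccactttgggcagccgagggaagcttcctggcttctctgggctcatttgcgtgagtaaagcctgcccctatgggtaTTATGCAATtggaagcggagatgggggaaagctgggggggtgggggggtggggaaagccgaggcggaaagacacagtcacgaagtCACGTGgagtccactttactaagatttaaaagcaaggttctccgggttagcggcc
Both strands were searched for 6 motifs. The E-box, CACGTG, was found at bases -55 to -50 from the start. The motif TTNNGNAAT, of the type bound by C/EBP factors, was found as TTATGCAAT at bases -140 to -132, and the 2 matches do not overlap. The other motifs searched were an NF-kB-type motif, the cyclic AMP response element TGACGTCA, the TATA box in the form of TATAAA, and TTCNNNGAA as the STAT-type motif. These 4 had no match in these letters, and sites spelled otherwise were not searched, so this does not show that such sites are absent. Among 33465 rat promoter stretches of the same length, 5.59% hold the E-box and 10.9% the C/EBP-type motif, so neither match is rare. The matches describe the sequence only, and no binding was measured in these samples.

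The first comparison asked whether arthritis changed the enzymes. Both genes rose in untreated arthritic synovium. Ptgs2 stood at 4.44, 9.61, 8.98 and 31.2 normalized reads in naive replicates 1 to 4, and at 162, 110.3, 49.0 and 162 in untreated PIA replicates 1 to 4. The groups did not overlap, although naive replicate 4 came close to PIA replicate 3. The means were 13.6 ± 12.0 in naive tissue and 120.9 ± 53.8 in PIA (SD, n = 4 each). The log2 fold change was 3.24 (SE 0.653, 95% interval 1.93 to 4.55, limma adjusted p = 7.9e-05). Arg1 stood at 2.67, 3.84, 3.99 and 5.21 normalized reads in the naive libraries and at 32.7, 45.7, 39.0 and 58.5 in the PIA libraries. Every PIA library was far above every naive library, and the spread within each group was narrow. How many of all genes separate 2 groups fully was not counted, here or in later comparisons. A lack of overlap therefore does not set these genes apart. The means were 3.93 ± 1.04 and 43.98 ± 11.05 (SD, n = 4 each). The log2 fold change was 3.18 (SE 0.576, 95% interval 2.03 to 4.34, limma adjusted p = 1.16e-05).

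These calls were 2 of 2 members higher, beside 27.8% of the 13062 genes tested that were called higher and 39.3% called in either direction, so a call alone did not set the members apart. Their size did place them near the top, with 98.4% of genes tested showing a smaller log2 fold change than Ptgs2 and 98.3% than Arg1. Naive values rested on few reads, between 5 and 30 per library for Ptgs2 and between 3 and 5 for Arg1. From summed reads per unit of depth, PIA exceeded naive 11.5-fold for Arg1 (171 against 16 reads, 95% counting interval 6.89 to 20.6) and 9.33-fold for Ptgs2 (468 against 54 reads, 7.03 to 12.6), where the intervals cover counting error only. Limma's fold changes were computed on log2(normalized reads + 1), so the added read makes a change between low levels look smaller. With the deposited scaling, genes as a whole stood higher in PIA by a median of 0.28 log2. With TMM factors (trimmed mean of M values, a scaling that centres most genes) that median was 0.01, the genes called were 2625 higher and 2486 lower in place of 3637 higher and 1493 lower, and the changes were 2.97 for Ptgs2 and 2.92 for Arg1. A two-sided exact permutation test gave p = 0.0286 for each gene, the smallest that 4 against 4 libraries allow, and 0.103 after adjustment over 34 such tests.

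**Figure D1:**
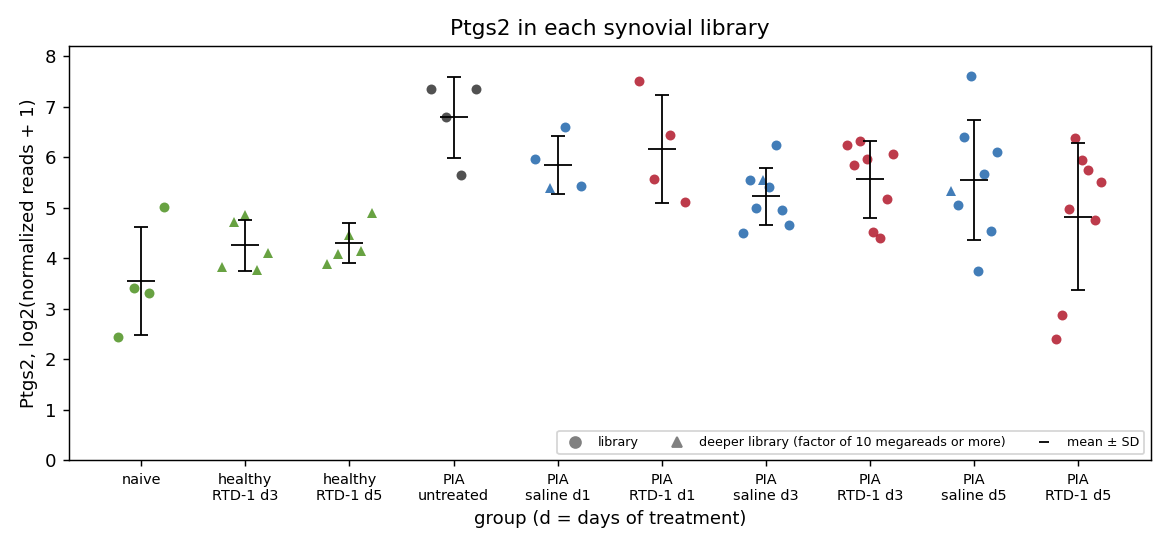
Ptgs2 as log2(normalized reads + 1) on the vertical axis in each of the 58 libraries, by group on the horizontal axis; points are libraries, triangles the deeper ones, and bars the mean ± SD. Untreated PIA had the highest mean, 6.79, naive tissue the lowest, 3.55, and 2 libraries of the 5-day RTD-1 group lay at or below 2.87.

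Over the 10 groups, the order of Ptgs2 ran from untreated PIA (mean log2 value 6.79 ± 0.80) through day 1 of RTD-1 (6.16 ± 1.06), day 1 of saline (5.84 ± 0.57), day 3 of RTD-1 (5.56 ± 0.76), day 5 of saline (5.56 ± 1.19), day 3 of saline (5.23 ± 0.57) and day 5 of RTD-1 (4.82 ± 1.45). The healthy groups given RTD-1 followed, at 4.29 ± 0.40 on day 5 and 4.25 ± 0.51 on day 3, and naive tissue came last at 3.55 ± 1.07 (SD; n as given for each group). No gap between neighbours in this order exceeded the root mean square of the 2 SDs. The widest gaps were 0.71 log2, between healthy RTD-1 day 3 and naive tissue, and 0.63, between untreated PIA and day 1 of RTD-1.

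Arg1 followed another order at the top. Day 1 of RTD-1 (5.91 ± 0.52) and day 1 of saline (5.79 ± 0.31) stood above untreated PIA (5.46 ± 0.35). Below them came day 5 of saline (4.80 ± 1.10), day 3 of RTD-1 (4.69 ± 0.94), day 3 of saline (4.56 ± 0.67) and day 5 of RTD-1 (3.72 ± 1.22), then healthy RTD-1 day 5 (3.19 ± 0.51), healthy RTD-1 day 3 (2.68 ± 0.98) and naive tissue (2.28 ± 0.31). Again no neighbours differed beyond their spread, and the widest gap was 0.83 log2, between saline day 3 and RTD-1 day 5. The gap of 0.33 between saline day 1 and untreated PIA was about as large as the spread of those groups.

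**Figure D2:**
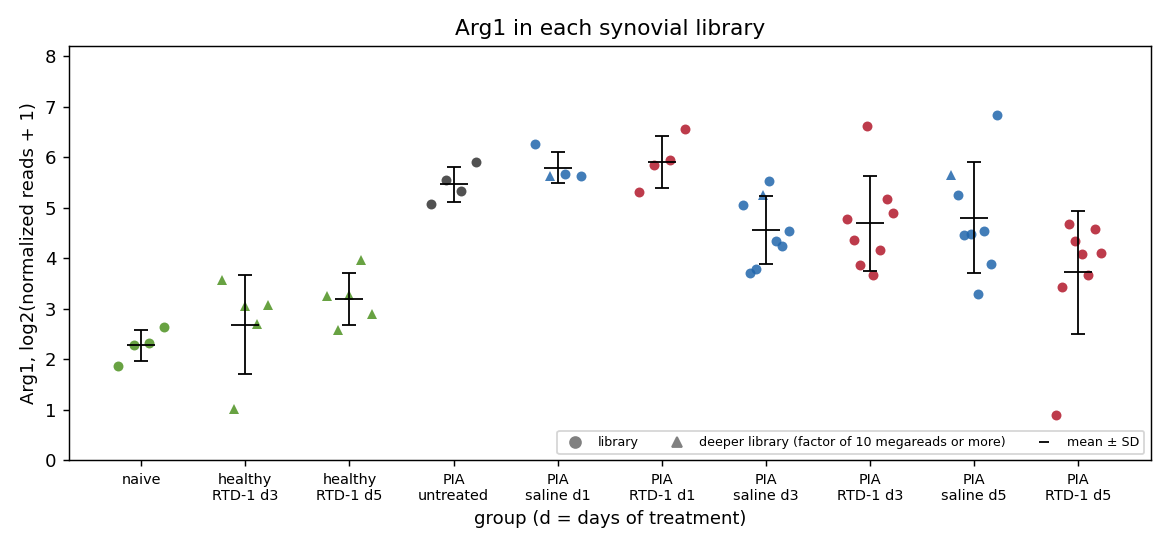
Arg1 as log2(normalized reads + 1) on the vertical axis in each of the 58 libraries, by group on the horizontal axis; points are libraries, triangles the deeper ones, and bars the mean ± SD. The untreated PIA and 1-day groups had mean values between 5.46 and 5.91, naive tissue 2.28, and 1 library of the 5-day RTD-1 group lay at 0.89.

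The genes were also placed among all genes tested by their group means. Ptgs2 had a higher mean than 16.2% of genes tested in naive tissue, 66.1% in untreated PIA, 47.2% after 5 days of saline and 34.4% after 5 days of RTD-1. Arg1 had a higher mean than 5.07%, 40.8%, 33.3% and 18.6% of genes in the same groups. Both varied strongly between libraries of a group. The residual SD within groups was 0.94 log2 for Ptgs2, larger than in 96.3% of the 2311 genes within 0.5 log2 of its mean. For Arg1 it was 0.85 log2, larger than in 86.8% of 1731 such genes.

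The main treatment comparison asked whether RTD-1 changed the enzymes relative to saline of the same duration. Neither gene passed the test on any day. After 1 day Ptgs2 stood at 182, 46.1, 86.2 and 33.4 normalized reads in RTD-1 replicates 1 to 4 and at 61.5, 40.8, 95.7 and 42.2 in saline replicates 1 to 4. RTD-1 replicate 1 was the highest of the 8 and RTD-1 replicate 4 the lowest, so the arms overlapped fully. The difference was 0.31 log2 (SE 0.653, 95% interval -1.0 to 1.62, limma adjusted p = 0.964). It was -0.14 without RTD-1 replicate 1 and 0.66 without RTD-1 replicate 4. Arg1 stood at 38.6, 56.3, 60.1 and 93.6 after RTD-1 and at 75.1, 48.2, 49.6 and 48.2 after saline, with the highest and the lowest value again in the RTD-1 arm. Its difference was 0.12 log2 (SE 0.576, 95% interval -1.03 to 1.28, limma adjusted p = 0.980) and turned to -0.03 with TMM factors. It was -0.09 without RTD-1 replicate 4 and 0.32 without RTD-1 replicate 1. No gene of 13062 was called on day 1 (0%; 612 at an unadjusted p under 0.05, and 0 with limma voom on recovered reads).

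After 3 days Ptgs2 ran from 20.2 to 78.5 normalized reads with a median of 58.6 under RTD-1, and from 21.5 to 74.3 with a median of 36.1 under saline. The ranges were nearly the same, although the lowest RTD-1 value, that of replicate 6, rested on 6 reads in the shallowest library. The means were 51.7 ± 23.0 and 39.2 ± 16.96 (SD, n = 8 each), a difference of 0.34 log2 (SE 0.462, 95% interval -0.59 to 1.26, limma adjusted p = 0.902). Arg1 ran from 11.7 to 97.6 with a median of 23.0 under RTD-1, and from 12.1 to 45.0 with a median of 20.8 under saline. Only RTD-1 replicate 4, at 97.6, lay outside the saline range by more than 1 normalized read. The means were 31.1 ± 28.0 and 24.8 ± 12.0 (SD, n = 8 each), a difference of 0.13 log2 (SE 0.408, 95% interval -0.68 to 0.95, limma adjusted p = 0.963). It was -0.14 without that library. Of all genes tested 0.00766% were called on that day.

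After 5 days the lower means were in the RTD-1 arm. Arg1 ran from 0.854 to 24.6 normalized reads with a median of 16.1 under RTD-1, and from 8.76 to 113 with a median of 21.9 under saline. Saline replicates 8 (113), 1 (49.1) and 2 (37.2) lay above every RTD-1 library, and RTD-1 replicate 1, with 1 read of Arg1 among 2265181 reads in genes, lay below every saline library. The means were 15.2 ± 7.66 and 35.8 ± 33.6 (SD, n = 8 each), a difference of -1.08 log2 (SE 0.408, 95% interval -1.89 to -0.26). The unadjusted p of 0.0107 did not pass after adjustment over all genes (limma adjusted p = 0.998), and the exact permutation p was 0.0780. By size alone, 0.299% of genes tested had a lower difference than Arg1. This rank takes no account of spread, and the residual SD of Arg1 exceeded that of 84.7% of genes tested. The difference was -0.67 without RTD-1 replicate 1 and -0.79 without saline replicate 8.

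Ptgs2 on day 5 ran from 4.27 to 82.3 normalized reads with a median of 37.5 under RTD-1, and from 12.5 to 195 with a median of 44.6 under saline. RTD-1 replicates 1 (4.27) and 2 (6.32) were the lowest of the 16 and saline replicates 4 (195) and 3 (83.5) the highest. The means were 38.4 ± 26.9 and 62.7 ± 58.3 (SD, n = 8 each), a difference of -0.73 log2 (SE 0.462, 95% interval -1.66 to 0.19, limma adjusted p = 0.998). Without RTD-1 replicate 1 or 2 it was -0.39 or -0.46, and without saline replicate 4 it was -0.44. No gene was called on day 5 (0%; 470 at an unadjusted p under 0.05, and 0 with limma voom).

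**Figure D3:**
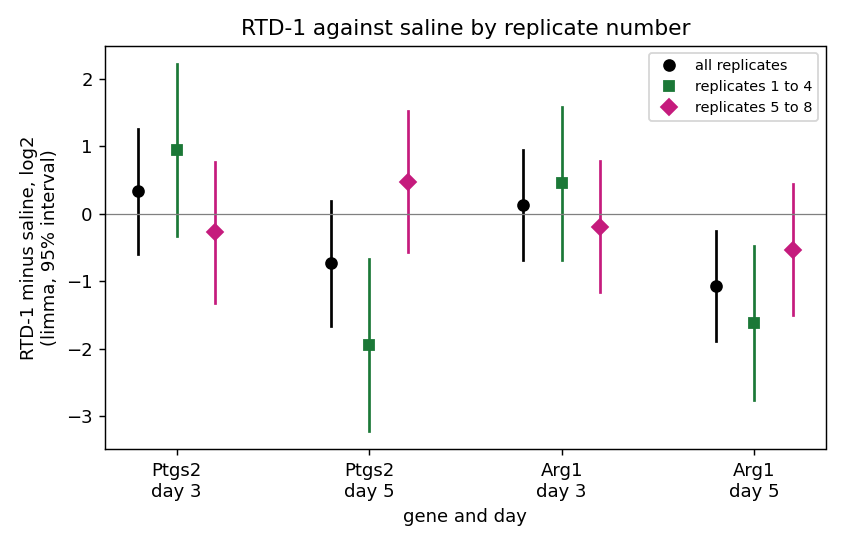
Difference of RTD-1 and saline on the vertical axis, in log2 with 95% intervals from limma that are not adjusted for the number of genes, for Ptgs2 and Arg1 on days 3 and 5; circles use all 8 replicates per arm, squares replicates 1 to 4 and diamonds replicates 5 to 8. For Ptgs2 on day 5 the value was -1.94 in replicates 1 to 4 and 0.48 in replicates 5 to 8, beside medians over all genes tested of -0.24 and 0.17.

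The groups of days 3 and 5 were numbered 1 to 8, and the difference took other values in replicates 1 to 4 than in replicates 5 to 8. Whether the 2 sets differ was not tested. On day 5 Ptgs2 was 30.8 ± 36.3 under RTD-1 and 87.5 ± 75.2 under saline in replicates 1 to 4 (SD, n = 4 each), a difference of -1.94 log2 (limma adjusted p = 0.151). In replicates 5 to 8 it was 45.9 ± 14.8 and 38.0 ± 25.2, a difference of 0.48 (limma adjusted p = 0.853). On day 3 the signs were the other way round, 0.94 in replicates 1 to 4 and -0.27 in replicates 5 to 8 (limma adjusted p = 0.554 and 0.862). Arg1 on day 5 had the lower mean under RTD-1 in both sets, with differences of -1.62 log2 in replicates 1 to 4 and -0.53 in replicates 5 to 8 (limma adjusted p = 0.167 and 0.811), and on day 3 it was 0.45 and -0.19. Genes as a whole moved in the same directions as Ptgs2. The median difference over all genes tested was -0.24 log2 in replicates 1 to 4 and 0.17 in replicates 5 to 8 on day 5. On day 3 it was 0.16 and -0.21. The turn of sign of Ptgs2 was thus also seen in the median over genes, but with smaller values than for Ptgs2. Whether Ptgs2 turned beyond that median was not tested. Arg1 turned sign on day 3 and not on day 5. The labels do not say what the numbering stands for.

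Averaged over the 3 days, RTD-1 minus saline was -0.03 log2 for Ptgs2 (95% interval -0.65 to 0.59, limma adjusted p = 0.999) and -0.27 for Arg1 (95% interval -0.82 to 0.27, limma adjusted p = 0.999). The effect of day 5 minus that of day 3 was -1.07 for Ptgs2 (limma adjusted p = 0.798) and -1.21 for Arg1 (limma adjusted p = 0.681), and neither passed. In replicates 1 to 4 of those days it was -2.89 for Ptgs2 (limma adjusted p = 0.0743) and -2.07 for Arg1, and in replicates 5 to 8 it was 0.75 and -0.34. Its median over all genes tested was -0.41 in replicates 1 to 4 (179 of 12967 genes called) and 0.38 in replicates 5 to 8 (0 of 12868 called). Day 5 minus day 1 was -1.05 and -1.20 (limma adjusted p = 0.943 for both). With all replicates, 0 of 13062 genes (0%) were called for the average over days, day 5 minus day 3 or day 5 minus day 1. Leaving out 1 library moved the averages over days from -0.18 to 0.09 for Ptgs2, and from -0.37 (without RTD-1 day 3 replicate 4) to -0.14 (without RTD-1 day 5 replicate 1) for Arg1. For Ptgs2 the lowest was without RTD-1 day 1 replicate 1 and the highest without RTD-1 day 1 replicate 4. The interval for Ptgs2 on day 1, from -1.0 to 1.62, was the widest of the single days.

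The time course compared each arm with untreated PIA, which both arms share, so the arms are given side by side. Under saline Ptgs2 differed from PIA by -0.94 log2 on day 1, -1.56 on day 3 and -1.23 on day 5 (limma adjusted p = 0.885, 0.195 and 0.156). Under RTD-1 the differences were -0.63, -1.22 and -1.96 (limma adjusted p = 1.00, 0.549 and 0.0179), so Ptgs2 passed on day 5 of RTD-1 alone. For saline on day 3 the exact permutation p was 0.00404, or 0.0458 after adjustment over 34 tests. Against PIA 0.0153% of all genes were called on day 3 of saline and 0.00766% on day 3 of RTD-1, and 0% on day 1 of either (699 genes at an unadjusted p under 0.05 for saline and 273 for RTD-1, with limma). Arg1 differed by 0.33, -0.90 and -0.66 log2 under saline (limma adjusted p = 0.960, 0.392 and 0.402) and by 0.45, -0.77 and -1.74 under RTD-1 (limma adjusted p = 1.00, 0.629 and 0.0172). On day 1 the mean of Arg1 was thus above that of untreated PIA in both arms, at 55.3 ± 13.3 under saline and 62.2 ± 23.0 under RTD-1 (SD, n = 4 each), while that of Ptgs2 was below it, at 60.0 ± 25.6 and 86.9 ± 67.2. None of these day 1 differences passed the test.

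On day 5 of RTD-1 both members had thus fallen against untreated PIA, 2 of 2, beside 11.3% of genes called lower and 12.7% called in either direction. On day 5 of saline neither was called, beside 7.09% of genes called lower and 8.37% called in either direction. With TMM factors the genes called were 645 higher and 609 lower for RTD-1 day 5 in place of 174 and 1482, and 676 and 599 for saline day 5 in place of 167 and 926. Under RTD-1 the members differed from PIA by -1.72 log2 (Ptgs2) and -1.50 (Arg1) with those factors, and both were still called. Since the direct test between the arms called neither gene on day 5, this does not show that the arms differ. The day 5 RTD-1 calls were marginal. That of Ptgs2 was lost without PIA replicate 1, 2 or 4 (limma adjusted p = 0.0740, 0.0564 and 0.0822), and that of Arg1 without PIA replicate 2 or 4 or RTD-1 replicate 1 (0.0579, 0.0765 and 0.0503). Ptgs2 under saline was called on day 5 without saline replicate 4 (limma adjusted p = 0.0498).

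Against naive tissue the day 5 groups were still raised in part. Under saline both genes were called higher, Ptgs2 by 2.01 log2 (SE 0.566, limma adjusted p = 0.00533) and Arg1 by 2.52 (SE 0.499, limma adjusted p = 7.1e-05), 2 of 2 beside 16.5% of genes called higher and 27.1% called in either direction. Every saline day 5 library lay above every naive library for Arg1, but not for Ptgs2, where saline replicates 5 (12.5) and 7 (22.1) lay below naive replicate 4 (31.2). Under RTD-1 Arg1 was called higher, by 1.45 log2 (SE 0.499, limma adjusted p = 0.0249), and Ptgs2 was not, at 1.28 (SE 0.566, 95% interval 0.14 to 2.41, limma adjusted p = 0.0923), 1 of 2 beside 14.5% of genes called higher and 25.6% called in either direction. Neither saline call was lost when any 1 library was left out, while single libraries decided the RTD-1 results. Under RTD-1 Arg1 lost its call without naive replicate 1 or 2 or RTD-1 replicate 3 or 7 (limma adjusted p = 0.0848, 0.0560, 0.0509 and 0.0504). Ptgs2 gained one without naive replicate 4 or RTD-1 replicate 1 or 2 (limma adjusted p = 0.0291, 0.0184 and 0.0296).

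**Figure D4:**
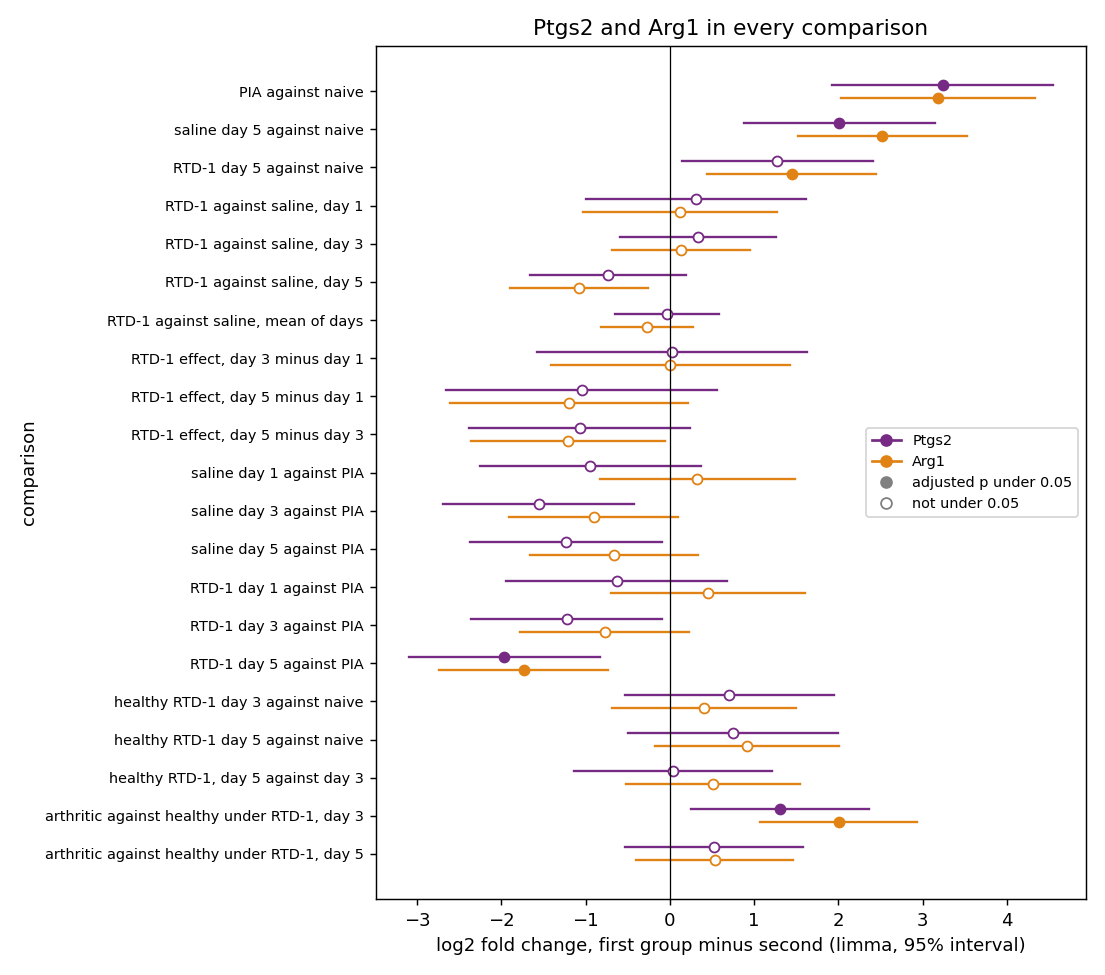
Log2 fold changes of Ptgs2 and Arg1 on the horizontal axis, first group minus second, for the 21 comparisons listed on the vertical axis; lines are 95% intervals from limma, not adjusted for the number of genes, and filled points have an adjusted p under 0.05. Of 42 values 9 are filled, and none of these is a comparison of RTD-1 with saline.

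Healthy rats given RTD-1 were compared with naive rats to see the enzymes without arthritis. Ptgs2 stood at 13.2, 25.3, 28.1, 12.6 and 16.1 normalized reads in healthy RTD-1 day 3 replicates 1 to 5, and at 13.8, 15.8, 21.1, 16.6 and 28.8 on day 5. All 10 lay within the naive range of 4.44 to 31.2, and above 3 of the 4 naive libraries. The differences from naive tissue were 0.71 log2 on day 3 (95% interval -0.54 to 1.95, limma adjusted p = 0.5002) and 0.75 on day 5 (95% interval -0.50 to 1.99, limma adjusted p = 0.445). Without naive replicate 4 they were 1.20 and 1.24, and neither passed.

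Arg1 stood at 10.8, 1.03, 7.34, 5.45 and 7.39 normalized reads on day 3 and at 8.55, 4.95, 8.60, 14.5 and 6.48 on day 5 of the healthy groups. Of these 10 libraries, 8 lay above the naive range of 2.67 to 5.21, and day 3 replicate 2, with 2 reads, lay below it. The differences were 0.41 log2 on day 3 (95% interval -0.69 to 1.50, limma adjusted p = 0.690) and 0.91 on day 5 (95% interval -0.18 to 2.01, limma adjusted p = 0.266). On day 3 the Arg1 difference was 0.19 without healthy replicate 1 and 0.82 without healthy replicate 2. So 0 of 2 members were called on either day, beside 11.8% of genes on day 3 and 13.5% on day 5. Sequencing of the healthy RTD-1 libraries went deeper than that of any naive library. The median difference over genes was 0.30 log2 on day 3 and 0.34 on day 5 with the deposited scaling, against 0.05 and 0.06 with TMM factors. Genes called went from 1456 higher and 90 lower to 468 and 238 on day 3, and from 1684 and 80 to 465 and 207 on day 5. With TMM factors the differences were 0.47 and 0.48 for Ptgs2 and 0.20 and 0.67 for Arg1. Between healthy day 5 and day 3 Ptgs2 differed by 0.04 log2 and Arg1 by 0.51 (limma adjusted p = 1.00 for both, with 0% of genes called, 62 at an unadjusted p under 0.05 and 0 with limma voom). Without day 3 replicate 2 the Arg1 value was 0.09, and over single libraries left out that of Ptgs2 ran from -0.11 to 0.19.

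Arthritic and healthy rats under the same days of RTD-1 were also compared. On day 3 both genes were higher in arthritic tissue, Ptgs2 by 1.31 log2 (SE 0.526, limma adjusted p = 0.0363) and Arg1 by 2.01 (SE 0.465, limma adjusted p = 0.000324), 2 of 2 beside 16.8% of genes called higher and 47.4% called in either direction. The lowest arthritic value of Arg1, 11.7, was above the highest healthy one, 10.8. For Ptgs2 arthritic replicates 5 (21.96) and 6 (20.2) fell inside the healthy range. Replicate 6 was the shallowest library of all, with 464693 reads in genes, and its Ptgs2 value rested on 6 reads. The Ptgs2 call was lost without any 1 of arthritic replicates 1, 2, 3, 4 and 8 or healthy replicates 1, 4 and 5 (limma adjusted p between 0.0517 and 0.0865). On day 5 neither gene was called, with 0.53 log2 for Ptgs2 (95% interval -0.53 to 1.59, limma adjusted p = 0.428) and 0.53 for Arg1 (95% interval -0.40 to 1.46, limma adjusted p = 0.360), and without arthritic replicate 1 these were 0.88 and 0.94. This was 0 of 2 beside 10.7% of genes called higher and 44.3% called in either direction (1393 higher and 4388 lower, or 2398 and 2954 with TMM factors). All healthy libraries here were deeper ones.

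The members were then compared with each other across the 44 arthritic libraries. Pearson's r of the log2 values was 0.54 (permutation p = 0.00024) and Spearman's rho 0.40 (permutation p = 0.00731), for the 1 pair computed. Both genes were low in RTD-1 day 5 replicates 1 and 2. Without them, the 2 libraries farthest from the median of Ptgs2, r was 0.31 (permutation p = 0.0428) and rho 0.31 (permutation p = 0.0460). Within days 3 and 5, r was 0.55 in replicates 1 to 4 (permutation p = 0.0342), where rho was 0.16 (permutation p = 0.543), and 0.49 in replicates 5 to 8 (permutation p = 0.0480), where rho was 0.45 (permutation p = 0.0800). With values centred on their group's mean, r was 0.39 (permutation p = 0.00967) and rho 0.17 (permutation p = 0.264), so the relation within groups was not seen in ranks. With TMM factors r was 0.48 (permutation p = 0.0013) and rho 0.27 (permutation p = 0.0798).

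**Figure D5:**
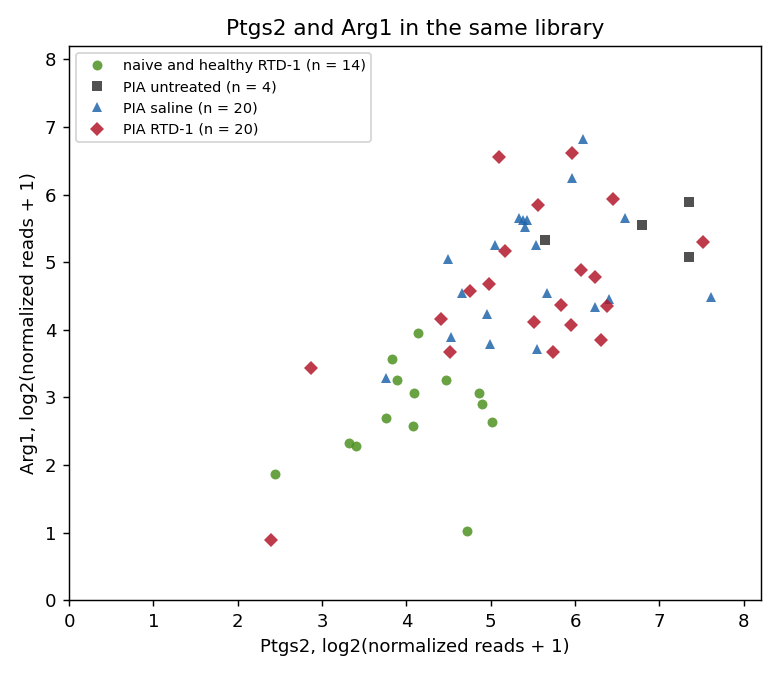
Arg1 on the vertical axis against Ptgs2 on the horizontal axis, both as log2(normalized reads + 1), with 1 point per library and symbols for the 14 non-arthritic, 4 untreated PIA, 20 saline and 20 RTD-1 libraries. Over the 44 arthritic libraries r was 0.54, and the 2 lowest arthritic values of Ptgs2 belong to RTD-1 day 5.

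The difference of the genes within a library, Arg1 minus Ptgs2 in log2, was also described by group. Read counts are not per transcript length, so only its change between groups can be read. It averaged -1.33 ± 0.80 in untreated PIA and -1.27 ± 0.78 in naive tissue (SD, n = 4 each), so the genes stood in about the same proportion in both. On day 1 it averaged -0.06 ± 0.59 under saline and -0.24 ± 1.54 under RTD-1 (SD, n = 4 each). By day 5 it was -0.76 ± 1.29 under saline and -1.10 ± 0.99 under RTD-1 (SD, n = 8 each). These differences were not tested.

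The gene whose pattern was most like each member was sought among genes whose log2 value averaged 5 or more (8425 for Ptgs2 and 8426 for Arg1). For Ptgs2 it was ENSRNOG00000014350, with r = 0.81 over the 58 libraries and 0.79 over the 44 arthritic ones. It stood at 120.8 ± 18.9 normalized reads in naive tissue and 515 ± 170 in PIA (SD, n = 4 each). For Arg1 it was ENSRNOG00000021199, with r = 0.83 over 58 libraries and 0.70 over the 44 arthritic ones, at 40.4 ± 8.17 in naive tissue and 292 ± 92.8 in PIA (SD, n = 4 each). These correlations describe the libraries, which share depth and disease state, and the files give no names for these identifiers.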

How the data were processed

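The libraries were stranded, made from total RNA of synovial tissue and read from 1 end over 75 nt, per the labels' protocols. The authors' deposited values are on a log2 scale: each is log2 of whole reads of a gene divided by 1 factor per library, with 0 reads held as 0.9 of a read, as read from the values. The submitters' processing notes name HISAT and DESeq. Their versions, the build and the annotation were "not given in the sources used here".

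Whole reads were recovered for 100% of values above 0 (relative tolerance 0.001) and scaled to the median factor of 5.75 megareads. The row without an identifier (0.000384% to 0.0137% of reads) was left out. Libraries with a factor of 10 megareads or more are called deeper, a limit chosen with results known. Counts of 2 libraries of a group always differed beyond sampling noise (chi-square per degree of freedom at least 2.48).

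Tested were the 13062 genes that reached 10 normalized reads in 4 or more libraries, both members included, with limma 3.58.1 in R 4.3.3 on log2(normalized reads + 1), in 1 fit of 10 group means with trend and robust moderation. P-values are two-sided and Benjamini-Hochberg adjusted over all genes tested, with a threshold of 0.05. Two-sided exact permutation tests of the log2 values were adjusted over 34 tests, and correlations used 100000 permutations. The fit was tested on simulated data. Groups and replicate numbers came from sample titles. The members, lists and tests were chosen with earlier results of these data known. Named genes were the members and the gene most alike to each. Prostaglandin, arginine and cell marker lists fixed by symbol were not analysed here, since 0 identifiers matched. Alternatives were other pseudocounts, filters, scalings, voom, the samples fitted, a replicate block and leaving out libraries. TMM factors together with leaving out the deeper saline libraries were added after seeing the data.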

Additional observations from a re-analysis of the deposited data

Results flagged for a closer look

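In 20 checks of a gene in a group, 2 libraries lay farther from the rest of their group than Dixon's 95% limit allows, and chance alone marks about 1 in 20 groups. Arg1 was at 75.1 normalized reads in saline day 1 replicate 1, while the other 3 libraries of that group lay between 48.2 and 49.6. Arg1 was at 0.854 in RTD-1 day 5 replicate 1, which is 1 read, while the other 7 lay between 9.83 and 24.6. Ptgs2 was also low in that library, at 4.27.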

How the results depend on the processing

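Of 43 results, 32 stayed on their side of the threshold in every setting run for them. The settings included 58 without 1 library. Each of those covered only comparisons using that library's group, so a member result had between 8 and 40 of them. Most of these 32 had not been called in the main fit. Of the 9 member results called there, only 2 kept their call in every setting. They were Arg1 in saline day 5 against naive and Arg1 in arthritic against healthy under RTD-1 on day 3. The relation of Ptgs2 and Arg1 is counted among the 32 by Pearson's r. It was run in 7 other settings and not with single libraries left out. Its rho did not pass in either replicate set, centred on group means or with TMM factors (permutation p from 0.0798 to 0.543). With the exact permutation test, adjusted over 34 tests, PIA against naive missed the threshold for Ptgs2 (3.24) and Arg1 (3.18; adjusted p = 0.103 for both), because 4 against 4 libraries can go no lower before adjustment. So did Ptgs2 in saline day 5 against naive (2.01, 0.103), RTD-1 day 5 against PIA (-1.96, 0.103) and arthritic against healthy under RTD-1 on day 3 (1.31, 0.0824), and Arg1 in RTD-1 day 5 against naive (1.45, 0.111) and against PIA (-1.74, 0.0824). Ptgs2 in saline day 3 against PIA passed it (-1.56, 0.0458). With limma, Arg1 in RTD-1 day 5 against naive was not called with a pseudocount of 8 (0.87), voom (1.41), only the groups compared (1.45) or replicates 1 to 4 (1.06). Ptgs2 was not called in saline day 5 against naive with voom (2.11), or in RTD-1 day 5 against PIA with only the groups compared (-1.96). With replicates 5 to 8 only, RTD-1 day 5 against PIA lost its calls (Ptgs2 -1.30, Arg1 -1.35), as did Ptgs2 in arthritic against healthy on day 3 (0.79), while Ptgs2 gained calls in RTD-1 day 5 against naive (1.94), saline day 5 against PIA (-1.77) and arthritic against healthy on day 5 (1.195). The cause was not tested.

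Leaving out 1 library at a time, the value ran from -2.345 to -1.62 for Ptgs2 and from -1.87 to -1.33 for Arg1 in RTD-1 day 5 against PIA. Against naive, RTD-1 day 5 ran from 0.91 to 1.765 for Ptgs2 and from 1.31 to 1.85 for Arg1. Ptgs2 ran from 1.19 to 1.475 in arthritic against healthy on day 3 and from -1.61 to -0.97 in saline day 5 against PIA. Same-numbered libraries of the 2 arms mostly shared little deviation (5 of 20 pairs of libraries with a correlation over 0.1, 6 of 20 best with their own number). The highest correlations were 0.277, 0.240 and 0.193, for day 5 replicates 6, 8 and 4, each best with its own number. These counts were not tested against a level set by chance. The labels state no pairs, so the numbers were not read as pairs. The replicate block changed 1 call, Ptgs2 in arthritic against healthy on day 3 (1.296, limma adjusted p = 0.0518). Arg1 had no value with only the groups compared in healthy RTD-1 against naive or in healthy RTD-1 day 5 against day 3. It failed the filter there. Nos2 had no value in any setting. Naive values of 3 to 30 reads limit the precision of every comparison with naive tissue.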
